A study of Mus musculus with 12 samples.

Results

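The genes described here are the 47 genes of the vesicle traffic between the endoplasmic reticulum (ER) and the Golgi, chosen by name out of 53715 genes in the deposited tables. They fall into 4 roles: 13 genes of the COPII coat and its exit sites, 11 of the COPI coat and the Arf switch that loads it, 17 cargo receptors, and 6 tethers and SNAREs. RNA was measured in organoids (cells grown as hollow epithelial structures in domes of Matrigel) of pancreatic ductal adenocarcinoma from mice of strain C57/Bl6. All 12 libraries carried Trp53LSLR172H/LOH and Pdx1-Cre, in which Cre made under the Pdx1 promoter of the pancreas switches on mutant Trp53. There were 2 organoid lines, mT6 and mT69a, each with 3 groups of 2 libraries. The control was an mRosa26 knock-out clone with the Empty vector. The knock-out was a Spdef knock-out clone with the Empty vector. The third group was the Spdef knock-out clone with the SPDEF-OE vector, meant to put the factor back. The labels describe each group as a clone and name a single Spdef knock-out, KO1, in each line, so a difference between clones and the loss of Spdef cannot be told apart. The age and sex of the mice are not given in the sources used here.

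Secretory and membrane proteins leave the ER in vesicles coated by COPII. Preb loads the GTPase Sar1 at exit sites organised by Sec16, the Sec23 and Sec24 pair then binds cargo and coat, and Sec13 and Sec31 form the outer cage. COPI, recruited by Arf GTPases through the exchange factor Gbf1, carries escaped ER proteins and receptors back. Cargo receptors such as the KDEL receptors, the p24 proteins (Tmed genes) and Lman1 with its partner Mcfd2 choose what travels, and tethers and SNAREs let the vesicles dock and fuse. Spdef is an ETS-family transcription factor known for driving secretory, mucus-making programmes in epithelia. The comparisons ask how the transport genes differed when Spdef was lost and when its vector was added.

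Depth ran from 9094295 to 28903831 expected counts per library. Spdef itself had 30 and 29 counts in the mT6 controls, 0 and 2 in the mT6 knock-out and 1 and 0 in the mT6 libraries with the vector. In mT69a it had 2 and 4, then 2 and 0, then 2 and 0 counts. The vector's product was therefore not visible as mouse Spdef in either line, and its libraries are called the libraries labelled re-expression. In mT69a the control was also close to the floor of 3 counts. The 8 duct epithelium markers were all detected at 1 TPM (a transcript level scaled for length and depth) or more in at least 1 library, and summed to between 2245 and 5182 TPM. Markers of fibroblasts, endothelium, and neuronal and endocrine cells summed to at most 0.27 TPM, acinar markers to at most 1.22 TPM, and immune markers to between 2.1 and 14.2 TPM. Nearly all of the immune sum was Cd68, a lysosomal protein of macrophages, singled out after its values were seen, while Ptprc, Cd79a and Lyz2 reached at most 0.12 TPM and Cd3e was listed at 0. Cd68 read 9.06 and 5.71 TPM in the mT6 controls, 11.6 and 4.49 in the knock-out and 5.58 and 2.10 with the vector, and 4.02 and 5.15, 14.2 and 7.34, and 5.47 and 3.38 in mT69a. Its part in the results was not tested. The mitochondrial share of counts was 12.7% to 15.5% in libraries numbered 1 and 18.6% to 27.1% in those numbered 2. Samples of the same number deviated together, so results are also given from a fit with the number as a block where that changes a call.

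Apart from a few rare members the machinery was well expressed in each group. On the TPM scale, which is per transcript length, Tmed2, a p24 cargo receptor, was the most abundant member with a mean of 183 TPM over the 12 libraries. It read 171 and 176 TPM in the mT6 controls, 204 and 173 in the knock-out and 179 and 256 in those labelled re-expression, and in mT69a 169 and 130, 225 and 152, and 184 and 182. The libraries labelled re-expression lay above the controls in both lines, with mT6 re-expression number 2 highest of all, but the difference missed the threshold (log2 0.16 ± 0.09, edgeR adjusted p = 0.271). Tmed10, the second p24 protein by level, ran from 69.6 to 109 TPM, with 96.7 and 99.3, 92.2 and 93.1, and 84.8 and 109 in mT6 and with 94.4 and 89.7, 77.0 and 69.6, and 78.1 and 70.7 in mT69a. Its mT69a controls lay above the 4 other libraries of that line.

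Among the coat genes, Arcn1 (the delta subunit of COPI) was the highest. Its levels were 109.6 and 84.2 TPM, 119 and 90.2, and 102 and 99.4 across the mT6 groups in the same order, and 110.5 and 89.7, 122 and 84.7, and 96.4 and 72.8 in mT69a. Arf4, one of the GTPases of the COPI switch, gave 150 and 102, 106 and 75.8, and 94.4 and 84.9 TPM in mT6 and 79.7 and 59.4, 85.4 and 54.9, and 88.9 and 61.9 in mT69a. Arcn1 showed no separation of groups, while the Arf4 libraries of the mT6 controls included the 1 highest value.

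Of the COPII genes, Sar1a, the GTPase that starts the coat, was first by level and Sec13 of the outer cage was next. Sar1a was at 43.7 and 38.1, 57.5 and 43.4, and 47.2 and 43.8 TPM in mT6, and at 53.7 and 39.8, 62.6 and 45.2, and 46.3 and 42.0 TPM in mT69a. Sec13 was at 43.5 and 31.0, 45.5 and 31.9, and 39.9 and 36.1 TPM in mT6, and at 52.0 and 37.1, 64.0 and 42.3, and 47.6 and 35.8 TPM in mT69a. In both genes the libraries numbered 1 were above those numbered 2 within each group. The leading SNAREs were Stx5a, the syntaxin of the early Golgi, and Sec22b. Stx5a had 37.2 and 39.7, 36.6 and 29.8, and 34.9 and 33.6 TPM in mT6 and 26.9 and 30.4, 31.1 and 22.9, and 36.4 and 33.4 TPM in mT69a. Sec22b had 25.6 and 20.1, 30.4 and 20.2, and 24.0 and 21.3 TPM in mT6 and 23.2 and 17.5, 28.7 and 18.9, and 27.2 and 19.3 TPM in mT69a. On the TPM scale no groups of Sec22b separated in either line. The Stx5a libraries with the vector lay below the controls in mT6 and above them in mT69a on that scale. In scaled counts the Stx5a knock-out lay below the control in both lines, while in TPM these groups overlapped in mT69a.

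At the low end were Copz2, a rare COPI zeta subunit with a mean of 0.46 TPM, Sec16b with 1.18 TPM and Kdelr3 with 5.21 TPM. Copz2 was the 1 member that failed the filter on low counts, so 46 members were tested. Its 12 libraries ran from 0.09 to 1.08 TPM. Sec16b, the minor scaffold of exit sites, ran from 0.03 to 3.71 TPM, the lowest library holding 1 count. Lman2, a lectin receptor for glycoproteins, had the narrowest range of the 47, its highest library reading 1.22 times its lowest.

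Promoter letters are shown for the members that hold the unfolded protein response element, since many ER genes share it. Of the 10 members past the threshold in a comparison of conditions, 3 hold it, namely Sec16b, Kdelr3 and Sec23a. The promoters of the others, Ergic1, Sec16a, Sec24a, Preb, Copa, Mcfd2 and Tmed9, do not. Promoters (250 bases before to 50 after the start site, RefSeq, GRCm38.p6) were on hand for 42 of the 47 members. The letters TGACGTGG, which the stress factors Xbp1 and Atf6 are known to bind, were searched on both strands and found in 8 of the 42 (19.0%), against 0.714% of all genes with a promoter. Among genes that entered the fit the shares were 19.5% of members and 1.01% of all. The 8 windows below run 5′ to 3′ on the strand that reads the element, with the element in capitals and 10 bases on either side.
Sec16b: tctgtgtggcTGACGTGGcacggcagtt
Kdelr3: ggccgcgcggTGACGTGGcggggcggcc
Sec23a: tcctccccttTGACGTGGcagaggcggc
Sec24d: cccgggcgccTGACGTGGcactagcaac
Copb1: agtccttggcTGACGTGGaagggggcgg
Copb2: gccaacccacTGACGTGGaacttccggg
Gbf1: gtcagctcacTGACGTGGtaactagcct
Stx5a: cctaactcggTGACGTGGctgctgcgcc
The Sec16b window is chr1:157506742-157506769 on the plus strand, with the element at bases -44 to -37 from the start site. The Kdelr3 window is chr15:79516368-79516395, minus strand, with the element at bases -30 to -23. The Sec23a window is chr12:59011994-59012021, minus strand, and lies just inside the transcript, from base 7 to 14 after the start. The other windows are chr3:123267460-123267487 on the plus strand for Sec24d, chr7:114254691-114254718 on the plus strand for Copb1, and, on the minus strand, chr9:98563714-98563741 for Copb2, chr19:46152536-46152563 for Gbf1 and chr19:8741423-8741450 for Stx5a. Stx5a holds a second match on the plus strand, 40 to 47 bases after the start site, too close to the end of the promoter to show with its flanks. In 6 of the 8 windows the element began within the 100 bases before the start site. The 8 members with the element had a median log2 change of 0.19 between the libraries labelled re-expression and the knock-out, 6 positive and 2 negative. For the 33 tested members whose promoters lack it the median was 0.12, with 24 positive and 9 negative. Of the 8, 1 was called higher and 1 lower, and of the 33, 4 higher and 0 lower. A link between the element and the changes was not tested.

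The cyclic AMP element TGACGTCA was in 2 members, Cope and Gosr2 (4.76%, against 2.03% of all genes), or 4.88% of members and 3.55% of all genes that entered the fit. The ETS-like letters CCGGAT were in 7 (16.7% against 6.82%), or 17.1% against 11.2% among genes that entered the fit. The core CCACG, which also lies inside the reverse complement of the element above, was in 33 (78.6% against 35.5%), or 78.0% against 52.2% among those genes. Neither of the longer ER stress elements (ERSE and ERSE-II) was matched in a member. A match describes the letters only, and none of the assays here measured binding.

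Where the libraries labelled re-expression differed from the knock-out in these genes, the difference was mostly upward. Averaged over the lines, 5 of the 46 members rose and 1 fell (6 of 46 called, against 7.77% of all 14473 genes tested, of which 4.46% rose and 3.32% fell; edgeR quasi-likelihood test with Benjamini-Hochberg adjustment). Those that rose were the cargo receptors Ergic1 and Kdelr3 and the exit-site genes Sec16a, Sec24a and Preb, and the gene that fell was Sec16b. The median log2 fold change of the 46 was 0.12, against -0.02 over all genes, and 34 of the 46 were positive. In 11 members (23.9%) both libraries with the vector lay above both of the knock-out in each line in counts scaled for library size and composition, against 9.06% of all genes, and in 2 (4.35%) they lay below, against 8.92%. The 11 were Sec24a, Sec24d, Sec16a, Preb, Copa, Copb1, Copb2, Kdelr3, Tmed3, Ergic1 and Bet1. On the TPM scale the groups of some of them, Copa and Sec16a included, overlapped. With the replicate block 14 rose and 2 fell, against 15.8% of all genes called, 8.35% higher and 7.49% lower.

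**Figure D1:**
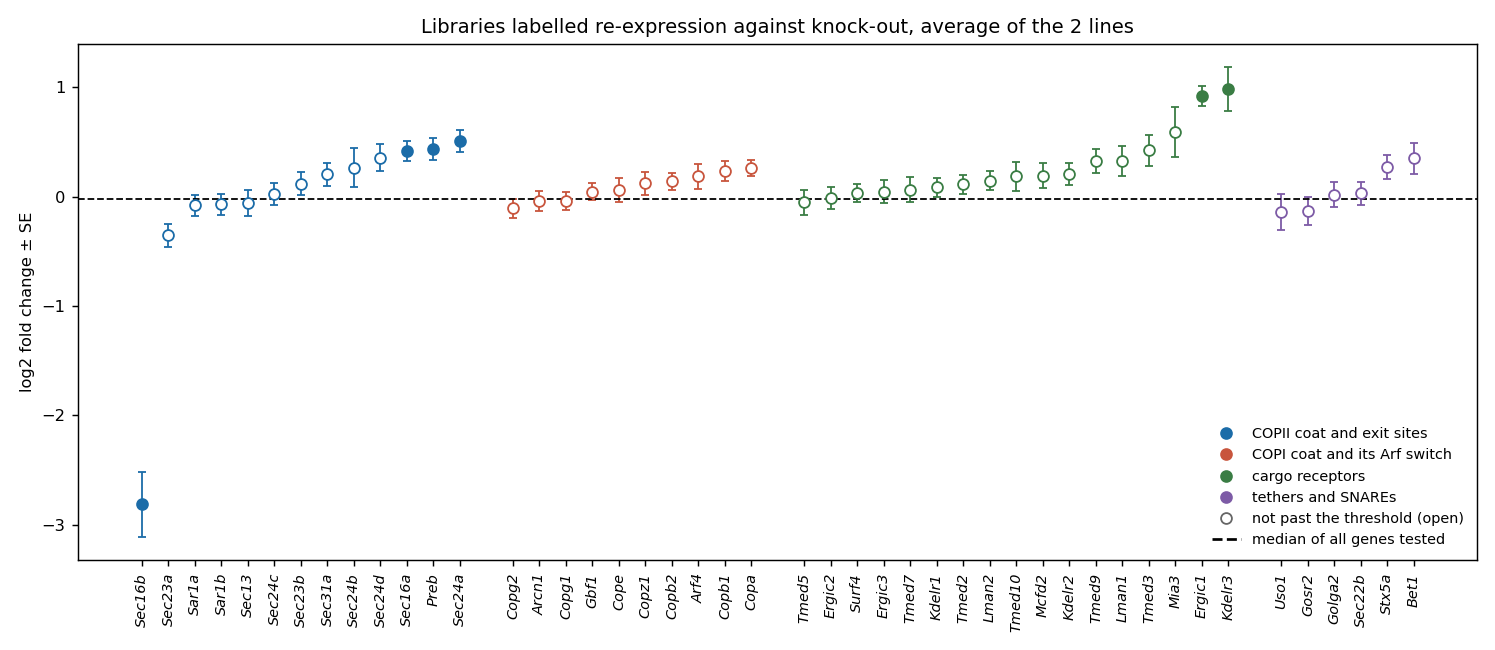
Log2 fold change (y axis, ± SE) of the 46 members tested between libraries labelled re-expression and knock-out, averaged over the 2 lines, with members along the x axis by role. Filled points pass the adjusted threshold of 0.05 and the dashed line is the median of all genes, -0.02; Sec16b lies lowest at -2.81 and Kdelr3 highest at 0.98.

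Ergic1, a membrane protein that cycles between the ER and the intermediate compartment (chr17:26561489-26656934), rose in both lines. Its levels were 83.7 and 73.4 TPM in the mT6 controls, 48.6 and 40.9 in the knock-out and 77.4 and 84.8 in the libraries labelled re-expression. In mT69a they were 49.95 and 41.2, 71.7 and 46.0, and 112 and 78.5 TPM. Both vector libraries lay above both knock-out libraries in each line. The rise was 1.89-fold (log2 0.92 ± 0.09 SE, edgeR adjusted p = 0.000171), and it passed in mT6 (log2 0.91 ± 0.13, adjusted p = 0.00448) and in mT69a (log2 0.93 ± 0.13, adjusted p = 0.00257) taken singly. It was called in each of the 12 fits that left out 1 library. The median gene of chromosome 17 moved by -0.03 in the same comparison.

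**Figure D2:**
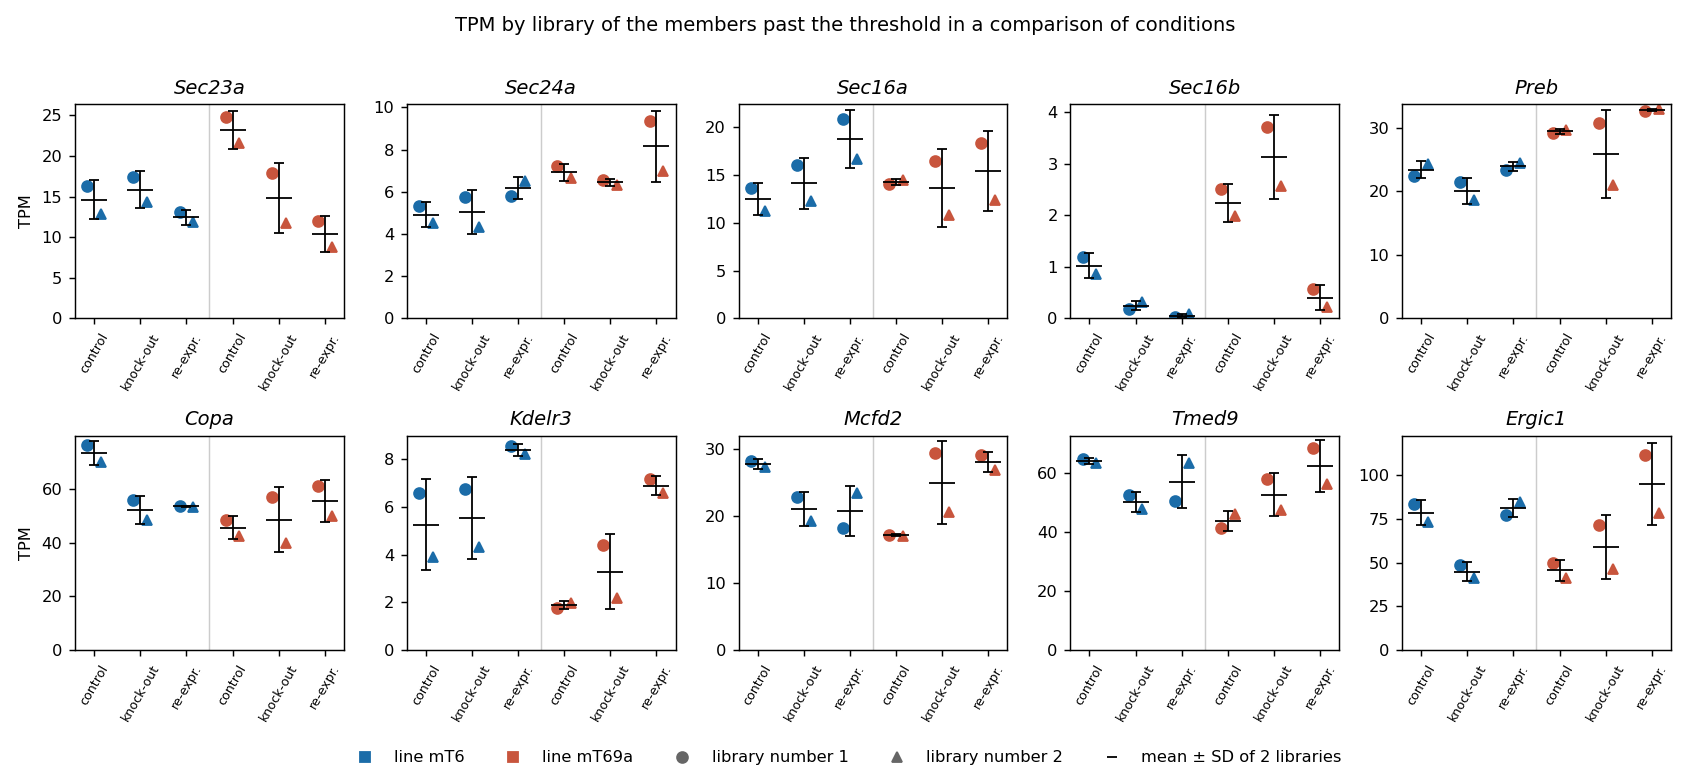
TPM (y axis, from 0) in each library of the 10 members past the threshold in a comparison of conditions, with line mT6 in blue, mT69a in red, library number 1 as circles and 2 as triangles; bars are the mean ± SD of 2 libraries. In both lines the vector libraries lie above the knock-out for Ergic1 and Kdelr3 and below it for Sec16b.

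Kdelr3, the least abundant of the receptors that return KDEL-tagged chaperones to the ER (chr15:79516411-79527739), was at 6.61 and 3.91 TPM in the mT6 controls, 6.75 and 4.34 in the knock-out and 8.57 and 8.23 in those labelled re-expression. In mT69a it was at 1.75 and 1.99, 4.40 and 2.19, and 7.17 and 6.61 TPM. The vector groups were the highest of each line and did not overlap the others. The rise against the knock-out was 1.98-fold (log2 0.98 ± 0.20, edgeR adjusted p = 0.0121), resting on 31 to 137 counts a library. In mT69a alone it was log2 1.28 ± 0.28 (adjusted p = 0.0302), and in mT6 alone it missed the threshold at log2 0.68 ± 0.28 (adjusted p = 0.323). Without mT69a knock-out number 2 the averaged value missed the threshold at an adjusted p of 0.0503. The far more abundant paralogs Kdelr1 and Kdelr2 did not pass (adjusted p = 0.710 and 0.300).

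The 2 Sec16 genes moved in opposite directions. Sec16b (chr1:157506728-157568425) had 59 and 101 counts in the mT6 controls, 8 and 27 in the knock-out and 1 and 3 with the vector, and in mT69a 149 and 127, 221 and 124, and 16 and 12. In TPM these were 1.19 and 0.86, 0.19 and 0.31, and 0.03 and 0.08 in mT6, and 2.5 and 1.98, 3.71 and 2.56, and 0.57 and 0.23 in mT69a. The vector libraries were the lowest of both lines. From summed counts scaled for depth, the knock-out exceeded them 4.72-fold in mT6 (95% exact interval 1.69 to 18.3) and 11.4-fold in mT69a (7.77 to 17.5), intervals that cover counting error only. Averaged over the lines, the fitted log2 change was -2.81 ± 0.30 (edgeR adjusted p = 0.000227) and was called in each of the 12 fits that left out 1 library. Taken singly, it passed in mT69a and missed the threshold in mT6.

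Sec16a, the main scaffold of exit sites (chr2:26409431-26445216), read 13.6 and 11.2 TPM in the mT6 controls, 16.0 and 12.2 in the knock-out and 20.9 and 16.6 with the vector, and 14.1 and 14.5, 16.5 and 10.8, and 18.3 and 12.4 in mT69a. On the TPM scale the mT69a groups overlap, while in counts scaled for library composition the vector libraries were above the knock-out in both lines. The rise was 1.33-fold (log2 0.41 ± 0.09, edgeR adjusted p = 0.0190). It missed the threshold when mT6 knock-out number 2, mT6 re-expression number 1, either mT69a knock-out library or mT69a re-expression number 1 was left out, with adjusted p between 0.0573 and 0.0981.

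Sec24a, a cargo-binding subunit of the inner COPII coat (chr11:51692264-51763634), was at 5.34 and 4.50, 5.77 and 4.32, and 5.80 and 6.53 TPM in mT6 and at 7.21 and 6.64, 6.56 and 6.33, and 9.35 and 6.97 TPM in mT69a. The vector libraries were above the knock-out in both lines, narrowly so in mT6. It rose 1.42-fold (log2 0.51 ± 0.10, edgeR adjusted p = 0.0128), and without mT69a knock-out number 1 or mT69a re-expression number 1 the adjusted p was 0.0663 and 0.0647. Preb, the exchange factor for Sar1 (chr5:30950853-30960361), was at 22.4 and 24.3, 21.5 and 18.6, and 23.4 and 24.4 TPM in mT6 and at 29.2 and 29.6, 30.8 and 20.9, and 32.7 and 32.9 TPM in mT69a. Its knock-out libraries were the lowest of mT6, while in mT69a 1 of the 2 knock-out libraries lay between the other groups. Preb rose 1.35-fold (log2 0.43 ± 0.10, adjusted p = 0.0237) and lost the call when mT6 knock-out number 1, mT6 re-expression number 2, either mT69a knock-out library or either mT69a re-expression library was left out (adjusted p 0.0505 to 0.0923). Preb shares 21.8% of its exon bases with Abhd1 on the opposite strand, which read at most 1.15 TPM.

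The inner coat partner Sec23a went the other way. It activates the GTPase of Sar1 and pairs with Sec24. Its log2 change against the knock-out was -0.35 ± 0.10 (edgeR adjusted p = 0.0719), which fell past the threshold with the replicate block (adjusted p = 0.00678), and 0 of 4 number-matched pairs were higher. The other COPII members that passed with the block alone were Sec24d (log2 0.36, blocked adjusted p = 0.0369) and Sec31a (log2 0.20, 0.0499). Sar1a, Sar1b, Sec13, Sec23b, Sec24b and Sec24c passed neither fit.

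None of the 10 measured COPI members passed in this comparison. Their median log2 change was 0.09 and 7 of 10 were positive. With the block, Copa (the alpha subunit, log2 0.26 ± 0.07, blocked adjusted p = 0.0101) and Copb1 (the beta subunit, log2 0.23 ± 0.09, blocked adjusted p = 0.0389) rose. In both genes 4 of 4 number-matched pairs were higher. Among the cargo receptors 15 of 17 were positive, with a median of 0.18, and the block added Tmed3, Tmed9, Lman1 and Mia3 to Ergic1 and Kdelr3. Mia3, which loads bulky cargo such as collagen, changed by log2 0.59 ± 0.23 (edgeR adjusted p = 0.187, blocked 0.0164). Its level in mT6 re-expression number 2 was 126 TPM, against at most 95.4 TPM in the other 11 libraries, and that library also had the highest mitochondrial share, 27.1%. Without that library the adjusted p of Mia3 was 0.447. Of the 6 tethers and SNAREs, Bet1 passed with the block alone (log2 0.35 ± 0.14, blocked adjusted p = 0.0459).

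No difference between the lines passed for this change. For the re-expression against knock-out change, 0 of 46 members differed between mT69a and mT6 by the interaction term in edgeR, against 0.0138% of all genes, and 0 did in DESeq2 (0.304% of all). At an unadjusted p below 0.05, 1 member differed in edgeR and 2 in DESeq2, against 4.92% and 3.54% of all genes. In mT6 alone 1 member rose and 0 fell (2.69% of all genes called, 1.55% higher and 1.14% lower), and in mT69a alone 3 rose and 1 fell (4.25% of all genes called, 2.57% higher and 1.68% lower). In mT69a the call of Kdelr3 was lost in the 4 fits without a knock-out or re-expression library of that line (adjusted p up to 0.219) and that of Sec16a in 9 of the 12 fits without 1 library (up to 0.329). With the block these counts were 1 and 1 in mT6 (7.29% of all) and 8 and 2 in mT69a (10.6%).

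Paralogs within a family share a role, and the share of each in its family's summed TPM is free of scaling between libraries. Sec23a made 31.5% to 41.5% of the Sec23 TPM in the 6 mT6 libraries. In mT69a it made 43.3% and 46.0% in the controls, 32.8% and 28.9% in the knock-out and 23.7% and 24.8% in the libraries labelled re-expression, the remainder being Sec23b. The 3 mT69a groups did not overlap. Sec24c, the leading Sec24 paralog, made 66.0% and 65.7% of its family in the mT6 controls, 56.6% and 62.4% in the knock-out and 52.6% and 45.9% with the vector, and 43.6% to 55.3% in mT69a. Sec24a made 7.4% and 7.7% in the same mT6 controls and 9.95% and 11.6% in the libraries with the vector. These shares are descriptions with no test. Sec23a lies on chromosome 12, whose median gene changed by log2 -0.34 between the mT69a knock-out and control. Sec24c lies on chromosome 14, whose median changed by -0.37 in mT6. The part of such shifts in the shares was not tested.

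**Figure D3:**
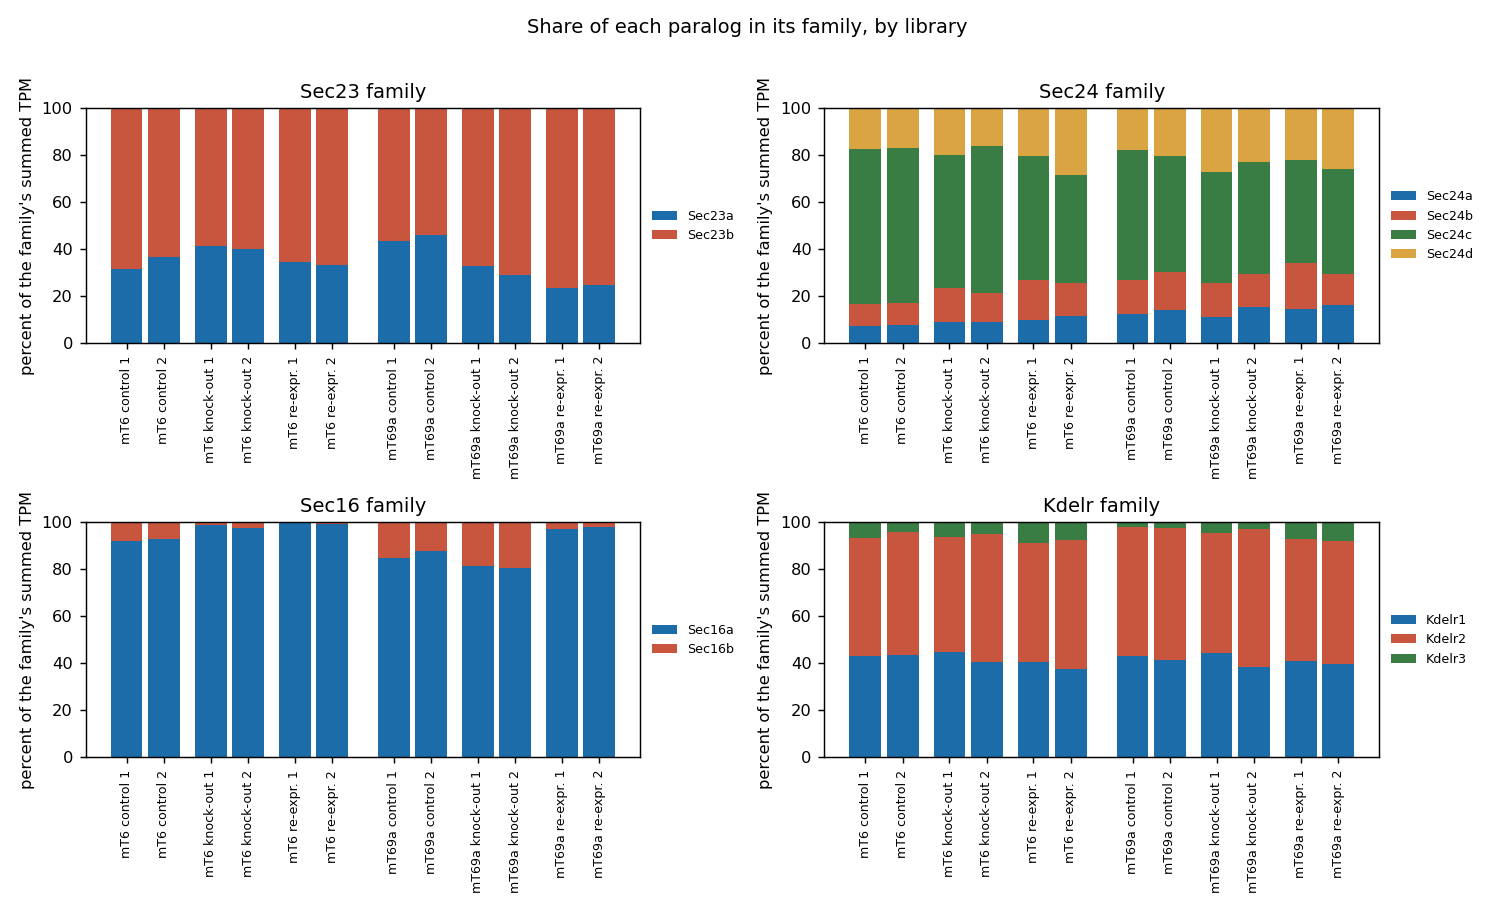
Share (y axis, percent of the family's summed TPM) of each paralog of the Sec23, Sec24, Sec16 and Kdelr families in the 12 libraries (x axis). Sec16b makes up to 19.2% of Sec16 in mT69a and at most 3.0% in the libraries labelled re-expression, and Kdelr3 at most 8.9% of its family in any library.

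Sec16b made 8.0% and 7.1% of Sec16 TPM in the mT6 controls, 1.2% and 2.5% in the knock-out and 0.1% and 0.5% with the vector. In mT69a it made 15.1% and 12.04%, 18.4% and 19.2%, and 3.0% and 1.8%. The drop with the vector thus appeared in both lines, the one in the knock-out in mT6. Kdelr3 made 6.5% and 4.3%, 6.3% and 5.1%, and 8.9% and 7.5% of the KDEL receptors in mT6, and 1.9% and 2.3%, 4.4% and 2.8%, and 6.9% and 7.8% in mT69a. Copg2, the second gamma subunit of COPI, made 27.5% and 28.4% of the Copg pair in the mT6 controls and 34.1% to 38.3% in the 4 other mT6 libraries, but 25.8% to 29.5% throughout mT69a.

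When both lines were averaged, no member passed for the knock-out in the fit without the replicate block, while 12 passed with it. In the knock-out against control comparison averaged over the lines, 0 of 46 members passed in edgeR, against 5.6% of all genes (3.3% higher, 2.3% lower), and 12 (26.1%) had an unadjusted p below 0.05, against 18.9% of all genes. DESeq2 called 1 lower (2.74% of all genes). With the replicate block 1 member rose and 11 fell (26.1% of the 46 called), against 15.0% of all genes, 7.96% higher and 7.04% lower. The median log2 change of the members was -0.02. In 5 members (10.9%) both knock-out libraries lay below both controls in each line in the same scaled counts (5.14% of all genes), namely Preb, Gbf1, Lman1, Mia3 and Stx5a, and in 1 (2.17%), Ergic2, they lay above (5.85% of all genes). On the TPM scale Preb and Stx5a overlapped in mT69a.

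The changes within a line were different in the 2 lines and lay largely on a few chromosomes. In mT6, 3 members were lower in the knock-out than in the controls and 0 were higher (3.23% of all genes called, 1.28% higher and 1.96% lower). The 3 were Ergic1, Copa and Sec16b. Against the controls, Ergic1 fell by 0.77 on the log2 scale (SE 0.13, edgeR adjusted p = 0.0110), Copa by 0.50 (SE 0.10, adjusted p = 0.0285) and Sec16b by 1.91 (SE 0.32, adjusted p = 0.0107). Copa read 76.5 and 70.2 TPM in the mT6 controls, 56.1 and 48.7 in the knock-out and 53.6 and 53.5 with the vector, and 48.6 and 42.5, 57.1 and 39.97, and 61.1 and 50.1 in mT69a. Its mT6 controls were the 2 highest of all 12 libraries. Leaving out 1 library of mT6 ended the call of Ergic1 in each of 4 cases, both controls and both knock-outs (adjusted p 0.0591 to 0.0907), and that of Sec16b without mT6 control number 1 or mT6 knock-out number 1 (0.0523 and 0.0745). Copa lost its call in 8 of the 12 such fits, those without either mT6 control, either mT6 knock-out, either mT69a knock-out or either mT69a re-expression library (up to 0.187). With the block 6 fell and 1 rose, against 12.5% of all genes.

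In that line the median gene of chromosome 1 fell by 0.28, of chromosome 14 by 0.37, of chromosome 17 by 0.44 and of chromosome 19 by 0.29 on the log2 scale, while those of the other autosomes ran from -0.02 to 0.16. The 9 members on these 4 chromosomes (Copa, Sec16b, Mia3, Arf4, Sec24c, Ergic1, Mcfd2, Gbf1 and Stx5a) all had negative changes with a median of -0.48. The 37 members elsewhere had a median of 0.03, and 13 of them were negative. All 3 members called lower were among the 9, and 5 of the 6 called lower with the block. Taken relative to its chromosome's median, the change of Ergic1 was -0.34, of Copa -0.23 and of Sec16b -1.63. In the mT69a controls against the mT6 controls the medians of chromosomes 1, 14, 17 and 19 were -0.35, -0.32, -0.43 and -0.12. The cut at a chromosome median of -0.2 was chosen after the values were seen, and the part of these shifts in the members' changes was not tested.

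**Figure D4:**
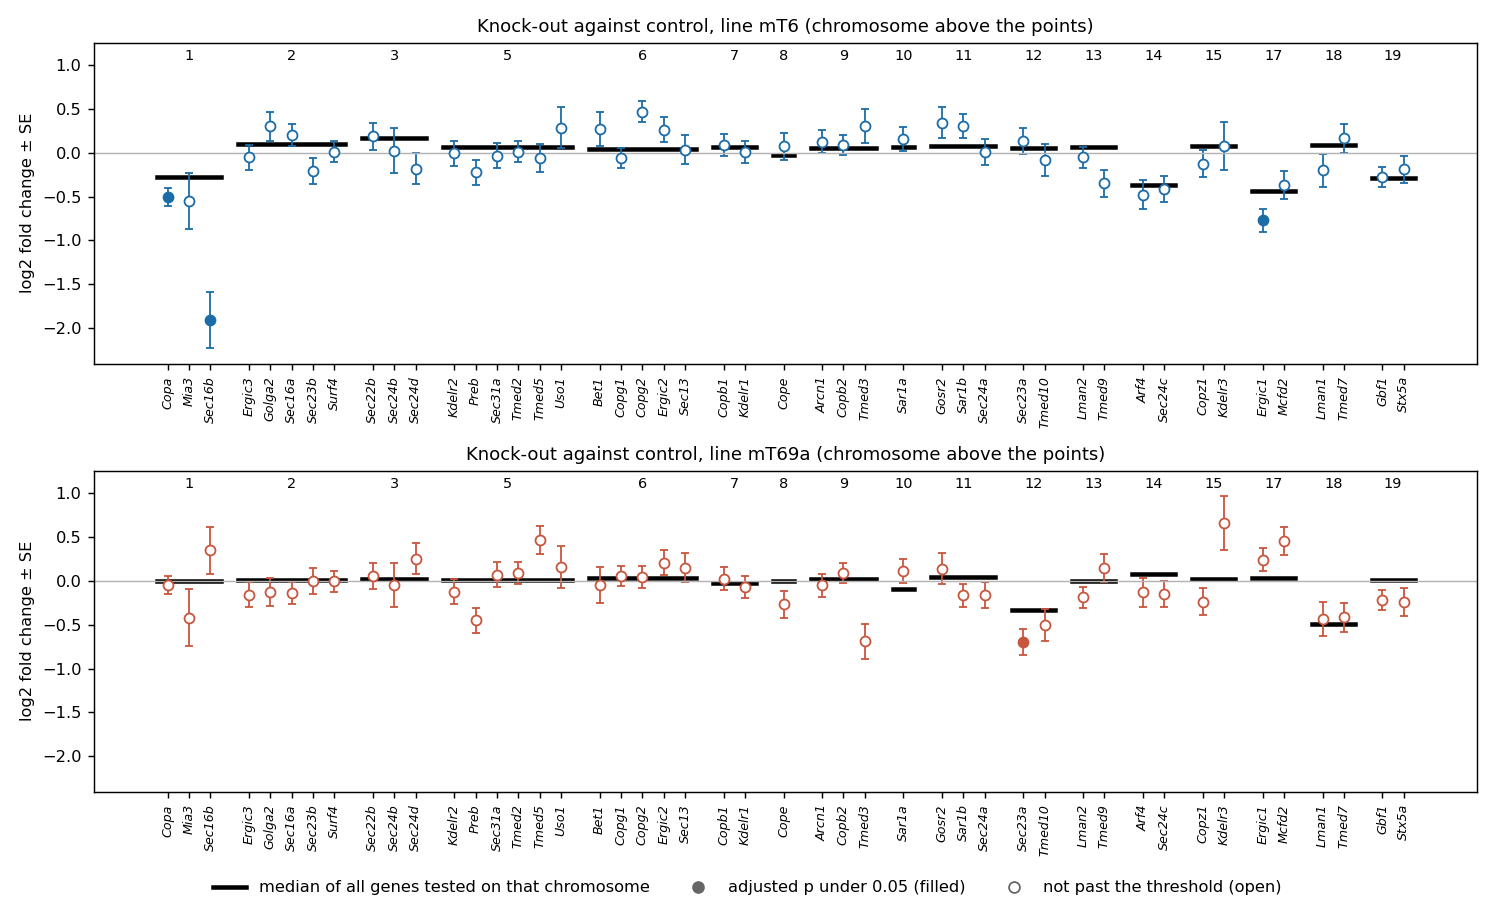
Log2 fold change of knock-out against control (y axis, ± SE) for the 46 members along the x axis by chromosome, in mT6 above and mT69a below; black bars are the median of all genes tested on that chromosome. In mT6 the members on chromosomes 1, 14, 17 and 19 lie below 0 with their chromosomes, and in mT69a those on 12 and 18 do.

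In mT69a 1 member fell in the knock-out and 0 rose (8.6% of all genes called, 4.88% higher and 3.71% lower). Sec23a (chr12:58958383-59012017) was at 24.8 and 21.6 TPM in the mT69a controls, 17.9 and 11.8 in the knock-out and 11.96 and 8.80 with the vector, and at 16.3 and 12.9, 17.5 and 14.3, and 13.1 and 11.8 in mT6. The controls of mT69a were the 2 highest of the 12 libraries. It fell by 0.70 on the log2 scale (SE 0.15, edgeR adjusted p = 0.0143), and without either mT69a control or mT69a knock-out number 2 the adjusted p was between 0.0700 and 0.137. The median gene of chromosome 12 fell by 0.34 and that of chromosome 18 by 0.49 in this comparison. The 4 members there, Sec23a, Tmed10, Lman1 and Tmed7, were all negative with a median of -0.47, against -0.03 for the 42 others. With the block 6 fell and 2 rose (16.0% of all genes), and the 4 were among the 6. The other members that fell with the block, Tmed3 (log2 -0.69, blocked adjusted p = 0.0108) and Preb (log2 -0.45, blocked adjusted p = 0.00781), lie on chromosomes whose medians moved by 0.01.

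In the re-expression against knock-out comparison, whose libraries all carry the label KO1, the medians of the 4 chromosomes in mT6 lay between -0.05 and -0.01 and those of the 2 in mT69a between -0.03 and -0.02. The 9 members in mT6 had a median change of 0.02 there, and the 4 in mT69a of 0.16.

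The libraries labelled re-expression were also set against the controls, a comparison that shares its libraries with those above. Averaged over the lines 4 members rose and 2 fell (14.5% of all genes called, 8.04% higher and 6.41% lower). DESeq2 called 7 higher and 2 lower (14.9% of all), and 10 rose and 4 fell with the block (25.4% of all, 13.2% higher and 12.2% lower). Ergic1 was 1.57-fold higher (log2 0.65 ± 0.09, edgeR adjusted p = 0.000962), Kdelr3 2.54-fold (log2 1.35 ± 0.20, adjusted p = 0.00146), Sec16a 1.36-fold (log2 0.44 ± 0.09, adjusted p = 0.00858) and Sec24a 1.34-fold (log2 0.43 ± 0.10, adjusted p = 0.0206). Sec23a was 1.55-fold lower (log2 -0.63 ± 0.10, adjusted p = 0.00247). Sec16b was lower by log2 -3.59 ± 0.28 (adjusted p = 2.11e-05). The Sec24a call was lost without mT6 control number 2, mT6 re-expression number 2, either mT69a control or mT69a re-expression number 1 (adjusted p 0.0551 to 0.0830), while the other 5 held in the 12 fits that left out 1 library.

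In mT6 alone Sec16a was higher and Copa and Sec16b lower (8.6% of all genes called, 3.9% higher and 4.7% lower), the call of Sec16a being lost in 8 of the 12 fits without 1 library (adjusted p up to 0.168), and with the block 5 rose and 5 fell (19.0% of all genes). In mT69a alone Ergic1, Kdelr3, Mcfd2, Copa and Tmed9 were higher and Sec23a and Sec16b lower (12.4% of all genes called, 7.01% higher and 5.36% lower). Mcfd2, the partner of Lman1 (chr17:87254443-87265935), was at 17.2 and 17.0 TPM in the mT69a controls, 29.4 and 20.6 in the knock-out and 29.1 and 26.9 with the vector, and at 28.3 and 27.2, 22.8 and 19.2, and 18.1 and 23.4 in mT6. Against the controls it was higher by log2 0.81 ± 0.16 in mT69a (edgeR adjusted p = 0.00851), and without mT69a control number 1 or mT69a re-expression number 2 the adjusted p was 0.0785 and 0.0720. The order of the control and vector groups was opposite in the 2 lines.

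Tmed9, a p24 protein (chr13:55573732-55597697), was at 41.1 and 46.0, 57.7 and 47.4, and 68.3 and 56.0 TPM in mT69a and at 64.5 and 63.1, 52.5 and 47.7, and 50.6 and 63.4 TPM in mT6. The vector libraries of mT69a exceeded the controls by log2 0.57 ± 0.16 (edgeR adjusted p = 0.0409), a call held by 3 of the 12 fits that left out 1 library (up to 0.249). Copa, at log2 0.35 ± 0.10 in mT69a (adjusted p = 0.0490) and -0.38 ± 0.10 in mT6 (adjusted p = 0.0463), held in none of those fits in either line (up to 0.250). In mT6 its value relative to the median of chromosome 1 was -0.07.

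Differences from the control were not the same in the lines for a few members, without the block about as often as for genes at large. For knock-out against control the interaction term passed for 3 of the 46 members, Ergic1, Sec16b and Sec23a. Of these 2 had a higher and 1 a lower value in mT69a (6.62% of all genes called, 4.04% higher and 2.58% lower). With the block it passed for 8 (15.2% of all). For re-expression against control it passed for 4 of the 46, Ergic1, Mcfd2, Copa and Sec23a. Of these 3 were higher and 1 lower (6.03% of all, 3.91% higher and 2.12% lower). With the block it passed for 10 (14.4% of all). All members named here lie on chromosomes 1, 12 or 17, whose medians shifted in 1 of the lines.

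The controls of the 2 lines already differed in these genes about as often as genes at large. Against mT6, the mT69a controls had 3 members higher and 10 lower, or 28.3% of the 46, against 28.2% of all genes, 13.4% higher and 14.7% lower. The COPI coat and its switch held 5 of the 10, with 0 of 10 higher and a median of -0.36, against -0.03 over all genes. Copb2 was lower by log2 -0.75 ± 0.11 (edgeR adjusted p = 0.000897), Arf4 by -0.82 ± 0.17 (adjusted p = 0.00477), Copa by -0.66 ± 0.10 (adjusted p = 0.00123), Cope by -0.65 ± 0.15 (adjusted p = 0.0102) and Copg1 by -0.41 ± 0.12 (adjusted p = 0.0243). The other members that were lower were Sec24c, Ergic1, Kdelr3, Mcfd2 and Tmed9, and Sec23a, Sec16b and Preb were higher. Kdelr3 had the widest difference of the 13, at log2 -1.44 ± 0.29 (adjusted p = 0.005003). The median genes of chromosomes 1, 8, 14 and 17, which carry Copa, Cope, Arf4, Sec24c, Ergic1 and Mcfd2 among those lower and Sec16b among those higher, lay between -0.43 and -0.32 in this comparison. The 4 others that were lower lie on chromosomes with smaller medians, Copb2 on 9 (-0.14), Kdelr3 on 15 (-0.11), Copg1 on 6 (-0.01) and Tmed9 on 13 (0.07). Copb2, Arf4, Copa and Ergic1 were called in each of the 12 fits that left out 1 library. Each of the 9 others lost its call without at least 1 library. These were mT69a control number 1 for Kdelr3 and Mcfd2 (adjusted p = 0.0590 and 0.0787), mT6 control number 2 for Sec23a (0.0563), that library or mT69a control number 1 for Sec16b (up to 0.0829), and mT6 control number 1 or mT69a control number 2 for Sec24c (up to 0.0728). Cope lost it without mT6 control number 1 or either mT69a control (up to 0.0657). Tmed9 lost it without either mT6 control, mT69a control number 1 or mT69a re-expression number 2 (up to 0.221), and Copg1 without any 1 of the 4 controls, mT69a knock-out number 1 or mT69a re-expression number 2 (up to 0.144). Preb kept it only without mT6 knock-out number 2 or either mT6 re-expression library, and reached 0.191 in the other fits.

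**Figure D5:**
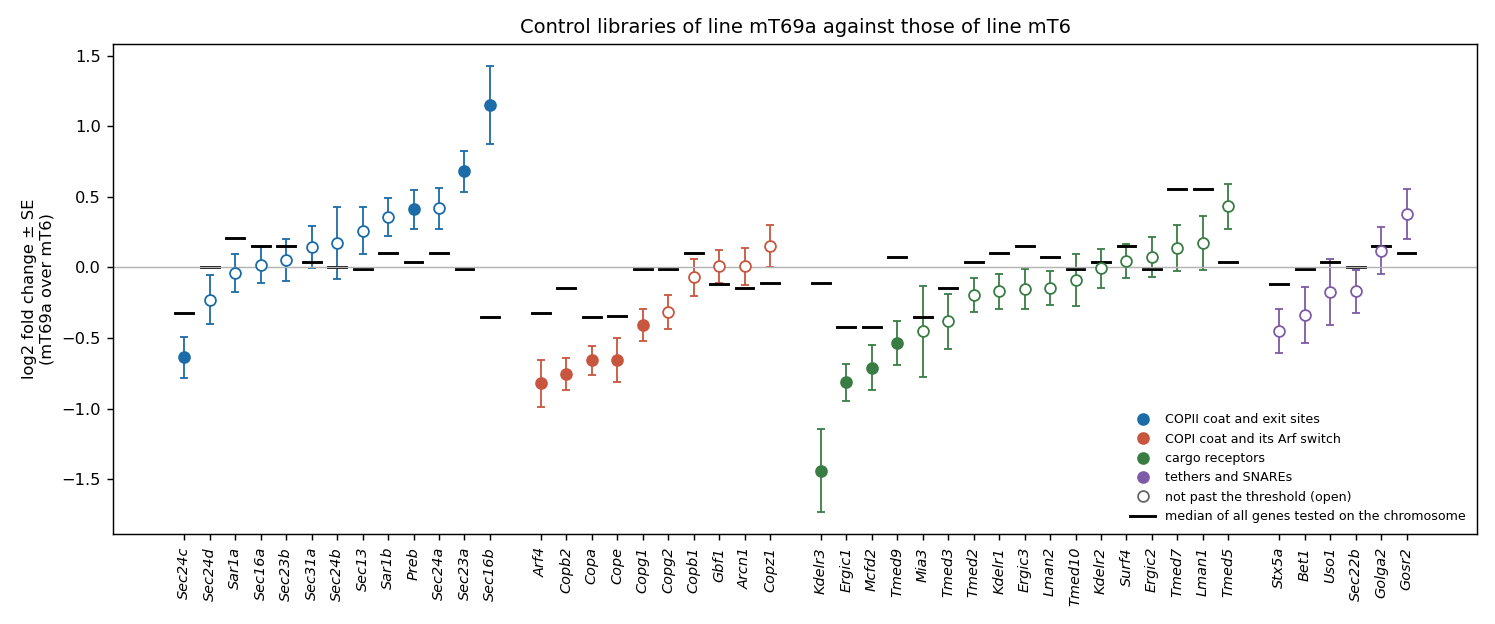
Log2 fold change of mT69a over mT6 control libraries (y axis, ± SE) for the 46 members by role along the x axis, with black bars at the median of all genes on the member's chromosome. Filled points pass the adjusted threshold of 0.05; the 5 filled COPI points lie between -0.82 and -0.41.

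Of 59 further genes of the same route (tethering complexes, Golgi matrix proteins, other Arf and Rab regulators), 57 were measured. Against the knock-out, 3 rose and 1 fell in the libraries labelled re-expression (7.02% of the 57, against 7.77% of all genes), with a median log2 change of 0.04. Gorasp1, which helps to stack Golgi cisternae, was at 2.87 and 3.91, 4.43 and 4.48, and 6.18 and 7.34 TPM in mT6 and at 2.18 and 1.79, 2.57 and 2.70, and 4.71 and 4.35 TPM in mT69a, and rose by log2 0.92 ± 0.12 (edgeR adjusted p = 0.000804). Lman1l, a relative of the receptor Lman1, had 0 and 1 counts in the mT6 controls, 0 and 0 in the knock-out and 35 and 74 with the vector, and 2 and 3, 0 and 2, and 9 and 20 in mT69a. It was at least 67.3-fold higher than the knock-out in mT6, with the knock-out set at 3 counts over the group, and 15.6-fold in mT69a (95% exact interval of counting error 3.95 to 135). It passed the filter on low counts only through the vector libraries, where it was high, so its test adds no support and only its counts are described. Lman1l is nevertheless 1 of the 3 counted above as risen. Golga5, a golgin of vesicle tethering, rose by log2 0.45 ± 0.09 (adjusted p = 0.0128), a call lost in 2 of the 12 fits that left out 1 library.

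With the vector, 4 of the 57 exceeded the controls and 5 were below them (15.8%, against 14.5% of all genes). Gorasp1 exceeded the controls by log2 1.14 ± 0.12 (edgeR adjusted p = 0.000126). Lman1l is counted among the 4, but its test adds no support, for the reason given above. Arf5, a GTPase of the same class as Arf4, was higher by log2 0.56 ± 0.10 (edgeR adjusted p = 0.00329). In the knock-out against control comparison averaged over the lines, 0 of the 57 passed in edgeR (5.6% of all genes) and 9 had an unadjusted p below 0.05 (15.8%, against 18.9% of all genes). With the block 1 rose and 4 fell (8.77%, against 15.0% of all genes).

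Transcript shares are estimates of RSEM from the deposited isoform TPM and were not tested. One Ergic1 transcript (ENSMUST00000167662.7) led in each of the 12 libraries with 70.6% to 83.1% of the gene's TPM, with no group apart from the others. Copg2 differed. Its transcript ENSMUST00000048774.12 made 48.0% and 47.7% of the gene in the mT69a controls, 70.3% and 78.6% in the knock-out and 45.9% and 55.5% with the vector, and 26.5% to 35.6% in mT6. Copg2 shares 17.8% of its exon bases with Mest on the opposite strand, which itself read 2.36 and 2.18, 16.1 and 11.3, and 7.49 and 4.83 TPM in the same mT69a libraries and at most 0.69 TPM in mT6. The kit keeps strand, but whether strand was used in counting is not given in the sources used here, so the reads of these 2 genes may not be told apart. Expected counts more than 0.005 from a whole number, a mark of reads divided among genes or transcripts, occurred in 16 members, and in all 12 libraries for Arcn1, Copa, Copg2, Ergic2, Preb, Surf4, Tmed2 and Tmed10.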

How the data were processed

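RNA of 12 organoid samples was sequenced after a stranded TruSeq preparation of total RNA, per the labels' protocols. FastQC 0.11.8, STAR 2.5.2b, RSEM 1.3.0 and genome build GRCm38.p6 are named in the submitters' processing notes, and the annotation release is not given in the sources used here. The authors deposited expected counts and TPM for genes and TPM for isoforms, per the file headers. Expected counts are estimates that need not be whole and were rounded for tests.

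Identifiers were matched to symbols with GENCODE M21 (53620 of 53715), whose coordinates are on GRCm38. Genes were filtered with filterByExpr, leaving 14473, scaled by TMM factors (0.839 to 1.20) and modelled in edgeR 4.0.16 by its quasi-likelihood method with robust settings. The model had 1 mean per group and 6 degrees of freedom left for the spread, and the biological coefficient of variation was 19.2%. Each comparison was a contrast of this fit, two-sided, with Benjamini-Hochberg adjustment over all 14473 genes and a threshold of 0.05. TPM describe levels only. Count ratios carry exact 95% intervals, and these and the floor of 3 counts cover counting error only. Whether the 2 libraries of a group were grown separately is not in the labels, and p-values then cover only how these libraries vary, which may be technical.

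The replicate numbers come from the labels' titles. Deviations from the group means correlated at 0.205 to 0.531 between same-numbered libraries in all 15 pairs of groups, so the numbers were taken to pair the libraries. A fit with the number as a block is printed where it changes a call. P-values and counts of calls not marked as from the block come from fits that ignore this pairing.

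The members and gene lists were chosen with earlier results of these data known. All 47 members are accounted for. Values by library are given for members past the threshold in a comparison of conditions, averaged or in 1 line, and for the 2 most abundant of each role, and of the other transport genes the 3 with the smallest adjusted p in each averaged comparison are named. The cut on chromosome medians and the counts of groups that do not overlap were chosen after the values were seen. The edgeR script was tested on simulated counts with known changes. Alternatives were the block, DESeq2 1.42.0, other size factors, no filter, limma 3.58.1 on log2(TPM + 1) and log2(TPM + 0.1), fits without mitochondrial genes and fits without 1 library. R 4.3.3, Python 3.11.15, pandas 2.3.3, NumPy 2.4.6, SciPy 1.17.1 and matplotlib 3.10.9 were used. A further allele shared by all groups is not reported here.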

Additional observations from a re-analysis of the deposited data

Results flagged for a closer look

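The values below are log2 differences between the lines, mT69a minus mT6, that passed the interaction term in edgeR (adjusted p under the threshold over all genes), and the cause of each was not tested. For knock-out against control, Ergic1 differed by 1.01 (adjusted p = 0.00882), falling in mT6 and not in mT69a, where its log2 change was 0.24. Sec16b differed by 2.25 (adjusted p = 0.00976), at -1.91 in mT6 and 0.34 in mT69a, and without mT69a control number 2 the adjusted p was 0.0502. Sec23a differed by -0.83 (adjusted p = 0.0389), at 0.13 in mT6 and -0.70 in mT69a, a call lost in 9 of the 12 fits that left out 1 library (up to 0.154). Relative to the medians of their chromosomes these differences were 0.51, 1.95 and -0.40.

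For re-expression against control, Ergic1 differed by 1.03 (edgeR adjusted p = 0.00901; 0.0558 without mT69a re-expression number 1), Mcfd2 by 1.15 (adjusted p = 0.0150; 0.0680 and 0.0695 without mT69a control number 1 or mT69a re-expression number 2), Copa by 0.74 (adjusted p = 0.0150; lost in 5 of the 12 fits that left out 1 library, up to 0.0865) and Sec23a by -0.95 (adjusted p = 0.0234; lost in 6, up to 0.0986). Relative to their chromosomes' medians these were 0.47, 0.59, 0.42 and -0.51. Mcfd2 and Copa were lower than control in mT6 and higher in mT69a in each library of the vector groups.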

How the results depend on the processing

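Counts of members called moved by over 1.5 times under several settings, and the cause was not tested. With the replicate block the counts became 12, 16 and 14 for knock-out against control, re-expression against knock-out and re-expression against control averaged over the lines, 7, 2 and 10 for the same in mT6, 8 and 10 for the first 2 in mT69a, and 8 and 10 for the differences between lines in knock-out and re-expression against control. DESeq2 gave 1 for the averaged knock-out comparison, 5 for re-expression against control in mT6 and 6 for the difference between lines in the knock-out. With no filter on counts the numbers were 2 for the averaged knock-out comparison, 3 for re-expression against knock-out in mT6, 2 for the knock-out in mT69a and 5 for the knock-out difference between lines, and without mitochondrial genes 1 for the averaged knock-out comparison. RLE size factors moved none. Limma on log2(TPM + 1) and on log2(TPM + 0.1) called fewer: both gave 2 and 3 for re-expression against knock-out and against control, 0, 0 and 1 for the 3 comparisons in mT6, 0, 1 and 4 for those in mT69a and 0 for both differences between lines in comparisons with control, and for the controls of the lines 2 and 1. With no filter log2(TPM + 1) gave 1 and 2, then 0, 0 and 0, then 0, 1 and 1, and 0 for both differences and for the controls. On log2(TPM + 0.1) the median of all genes moved to -0.12 for re-expression against knock-out and -0.18 for it in mT69a.

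Leaving out 1 library at a time gave 0 to 1, 3 to 7 and 5 to 6 calls for the 3 averaged comparisons, 0 to 3, 1 to 2 and 1 to 2 in mT6, 0 to 2, 2 to 4 and 4 to 6 in mT69a, 1 to 5, 0 to 0 and 1 to 4 for the differences between lines, and 6 to 14 for the controls. Where this left 1 library in a group, it was assumed to vary like those of the other groups. These fits had no block, so such a group held a single library number. A lost call may therefore also reflect the shift between numbers, which was not tested. Of the 51 member calls named, none changed sign under any setting run. All 51 held with the replicate block and with RLE size factors, 50 with DESeq2, 50 without mitochondrial genes, 44 with no filter on counts, 13 with log2(TPM + 1), 12 with log2(TPM + 0.1) and 5 with log2(TPM + 1) and no filter, and of 612 values without 1 library 467 held. Relative to the chromosome's median 24 of the 51 moved by more than the spread between replicates.

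Depth limits Sec16b most, with 35 counts over both mT6 knock-out libraries and 4 over both mT6 re-expression libraries, and Copz2, at 15 counts or fewer in each library, did not pass the filter and was not tested.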
